A study of Mus musculus with 18 samples.

Results

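Small RNA in extracellular vesicles (EV) released by LPS-treated dendritic cells (LPS-EV) was compared with small RNA of the dendritic cells that released them (LPS-DC). The comparison used the 3 LPS-EV and the 3 LPS-DC libraries of the series, 6 of 18 libraries in all, matched by replicate number. The library titles name no replicate, so these numbers follow the order of the sample numbers in the titles. The pairing of EV with parent cells rests on that order. Bone marrow of C57bl/6 mice aged 8 to 12 weeks was grown to dendritic cells in medium with GM-CSF from a producing NIH 3T3 cell line, which all groups shared. LPS was given at 1 µg/ml on day 12 for 24 h, after which the cells were cultured for 20 h in medium with serum that had been depleted of EV by centrifugation. Supernatants were pooled per condition, EV were collected on a sucrose gradient, and ribosomal RNA was depleted from both kinds of sample before library preparation. The other 12 libraries came from EV and cells of untreated control cultures and of cultures given VitD3 (10 nM), and entered only the comparison of vesicle-to-cell ratios between conditions. The comparison asks which RNAs were over- or under-represented in EV relative to the parent cell.

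EV are membrane particles that cells release from the plasma membrane or from endosomes, and they carry a subset of the cytosol, including short non-coding RNAs. miRNAs guide Argonaute proteins to messenger RNAs and are cytoplasmic when mature. snoRNAs guide chemical modification of ribosomal RNA in the nucleolus, snRNAs build the spliceosome, 7SK RNA holds back a transcription elongation factor in the nucleus, and tRNAs, 7SL RNA of the signal recognition particle, Y RNAs and Vault RNA have cytoplasmic functions. LPS, a component of the outer membrane of Gram-negative bacteria, activates dendritic cells through Toll-like receptor 4.

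Libraries differed in depth, and LPS-EV replicate 2 stood apart. LPS-EV libraries held 2746418, 410968 and 2248774 counted reads and LPS-DC libraries 18872758, 13708699 and 42065263. In that library 52.3% of the reads were ribosomal RNA, against 16.2% and 17.6% in the other LPS-EV libraries. Replicates 1 and 2 of both sample types were sequenced in run 1 and replicate 3 in run 2, so that experiment day and run cannot be told apart. Of the dendritic cell and myeloid list, miR-223-3p, miR-142a-3p and miR-155-5p had reads in all 6 libraries. Not all members did. miR-511-3p had 0, 1 and 0 reads in LPS-EV and 11, 5 and 5 in LPS-DC, and miR-511-5p 3, 0 and 0 against 4, 4 and 5. The lymphoid miR-150-5p did not reach 10 reads over the 6 libraries.

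The sequences below are the mature miRNAs on which the miRNA comparison turned. They are RefSeq entries (GRCm38.p6), written 5′ to 3′ with the seed, bases 2 to 8, in capitals. The first group was lower in LPS-EV than in LPS-DC.
miR-677-5p: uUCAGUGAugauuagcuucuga
miR-5121: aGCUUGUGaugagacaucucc
miR-3535: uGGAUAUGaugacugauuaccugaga
The next group was higher in LPS-EV.
miR-682: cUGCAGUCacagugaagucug
miR-126a-3p: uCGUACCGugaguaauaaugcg
miR-451a: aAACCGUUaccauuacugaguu
miR-10b-5p: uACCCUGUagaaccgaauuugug
The last group made up much of the miRNA reads in both sample types and was not called. Its let-7 members share a seed.
miR-21a-5p: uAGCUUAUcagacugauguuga
miR-146b-5p: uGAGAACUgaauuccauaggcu
let-7f-5p: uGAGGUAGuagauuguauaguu
let-7i-5p: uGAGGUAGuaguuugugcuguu
let-7a-5p: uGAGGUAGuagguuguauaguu
The genes of miR-677-5p (chr10:128085291-128085312, plus strand), miR-5121 (chr7:45126925-45126945, minus strand) and miR-3535 (chr1:86352062-86352087, minus strand) lie in or on annotated snoRNA genes.

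The class make-up of the libraries differed most for snoRNA, ribosomal RNA and miscRNA, the Ensembl class that holds 7SL, 7SK, Y and Vault RNA. snoRNA made up 1.24, 4.33 and 1.94% of counted reads in LPS-EV and 36.9, 31.4 and 55.5% in LPS-DC. The groups did not overlap (2.5 ± 1.62% against 41.3 ± 12.6%, SD, n = 3), and the geometric mean over the 3 pairs was 18.3-fold lower in LPS-EV. miscRNA took 3.19, 1.16 and 3.91% of LPS-EV reads and 0.229, 0.226 and 0.202% of LPS-DC reads, an 11.1-fold higher geometric mean. Ribosomal RNA left after depletion took 16.2, 52.3 and 17.6% in LPS-EV and 0.41, 0.584 and 0.331% in LPS-DC, 57.4-fold higher in geometric mean. Each of these differences had p = 0.1 in a two-sided exact permutation test, the smallest that 3 against 3 libraries allow. For ribosomal RNA the paper holds unequal depletion in EV and cells to be the probable source of the apparent excess, which was not tested here.

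miRNA, whose shares overlapped between EV and cells, took 7.59, 8.11 and 11.5% of reads in LPS-EV and 11.2, 8.8 and 6.46% in LPS-DC, with nearly equal means (9.07 ± 2.13% and 8.82 ± 2.37%, exact permutation p = 0.9). tRNA took 70.2, 32.5 and 60.6% against 48.2, 54.8 and 31.3% (exact permutation p = 0.5). snRNA was lower in LPS-EV in 3 of 3 pairs, at 1.45, 1.55 and 4.25% against 2.86, 4.05 and 6.07%, but the groups overlapped (exact permutation p = 0.3). Because ribosomal RNA filled much of LPS-EV replicate 2, single RNAs were compared within their class, and then over all reads.

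**Figure D1:**
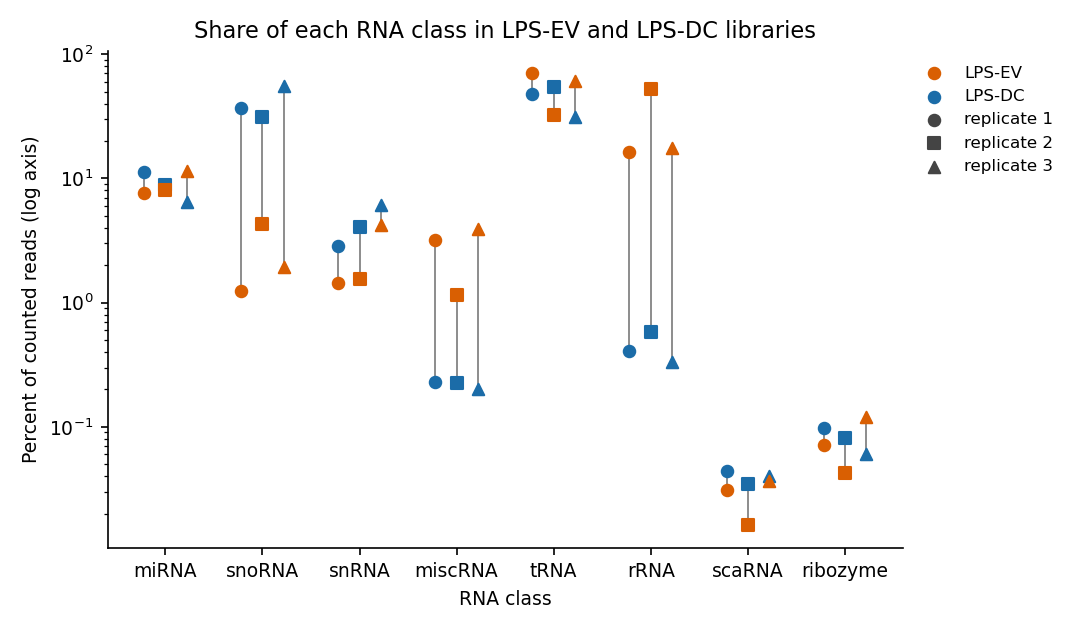
Percent of counted reads in each RNA class (log axis) for the 3 LPS-EV and 3 LPS-DC libraries, 1 point per library, with lines joining the libraries of a replicate. snoRNA was at 1.24 to 4.33% in LPS-EV and 31.4 to 55.5% in LPS-DC, while miRNA shares overlapped.

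Relative to the other miRNAs, 28 of 347 tested miRNAs differed between LPS-EV and LPS-DC. Of these, 16 were higher and 12 lower in LPS-EV (8.07% called, FDR below 0.05 and over 2-fold, edgeR quasi-likelihood test with TMM scaling within miRNA and the replicate number as block). The median log2 difference over all tested miRNAs was -0.26, and -0.06 with the 31 miRNAs without an EV read set to a floor of 3 reads over the 3 LPS-EV libraries. Scaling by the miRNA total in place of TMM moved that median from -0.26 to 0.21 and gave 20 higher and 6 lower. Without the replicate block 3 were higher and 4 lower, and without replicate 3 the number called was 5.

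Several of the most abundant miRNAs were not called, while the abundant miR-3535 was lower in LPS-EV. miR-21a-5p, the most abundant miRNA of these cells, had 82823, 14838 and 81985 reads in LPS-EV and 680232, 479647 and 977513 in LPS-DC. This was 46.8 ± 5.67% of miRNA reads in LPS-EV and 43.9 ± 4.24% in LPS-DC, and the difference was not called (log2 difference -0.43 ± 0.44 SE, FDR 0.679). miR-146b-5p, which is induced by Toll-like receptor signalling and targets adaptor proteins of that pathway, had 19266, 2254 and 21982 reads against 197134, 99408 and 263698. Its shares were 9.96% and 11.1% in mean, a log2 difference of -0.69 (FDR 0.335). miR-9-5p made up 4.59% and 5.08%, and miR-27b-3p 3.58% and 3.48%. Under scaling by the miRNA total the log2 difference of miR-21a-5p was 0.092 and that of miR-27b-3p 0.030.

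let-7 miRNAs, which favour differentiation over proliferation in many tissues, all leaned toward the cells without a call. The 9 tested members of the list had a median log2 difference of -0.82 against -0.26 for all miRNAs (0 higher, 0 lower), and all 9 were below 0, also under scaling by the miRNA total, where their median was -0.31. let-7f-5p had 5997, 687 and 11039 reads in LPS-EV and 81727, 41533 and 134931 in LPS-DC (3.78% and 4.99% of miRNA reads). Its log2 difference was -0.98 with FDR 0.0666, and it passed the threshold without replicate 1 (-1.15, FDR 0.0459). let-7i-5p, with 5358, 670 and 8038 reads against 65113, 32866 and 106809, had a log2 difference of -0.87 (FDR 0.121). let-7a-5p differed by -0.79 on the same scale.

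**Figure D2:**
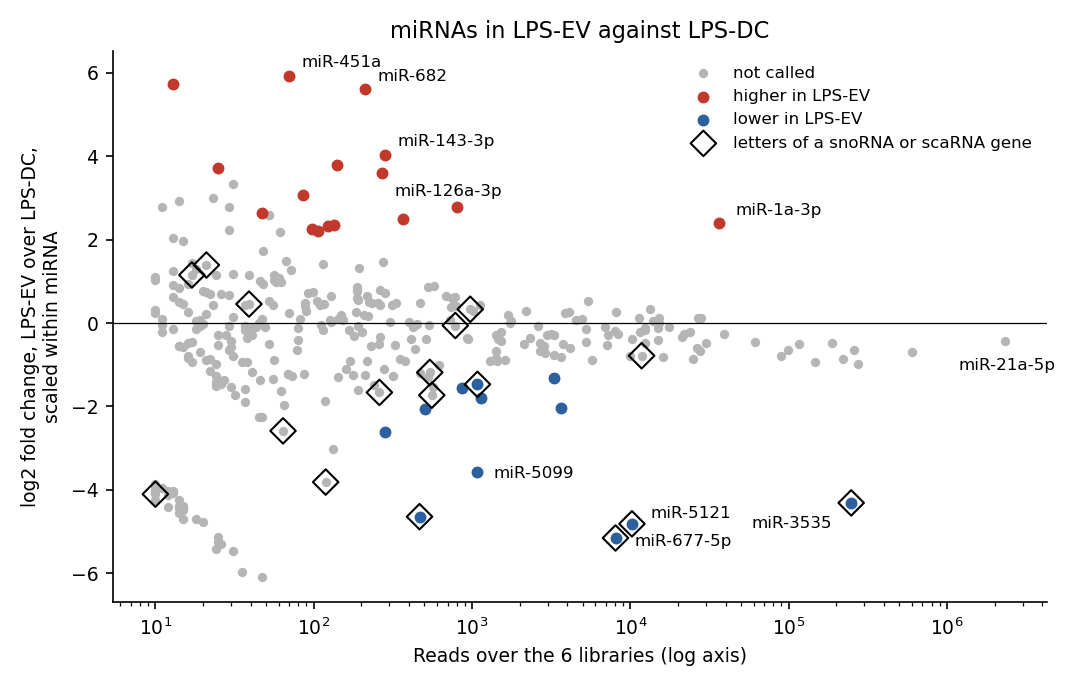
Log2 difference of LPS-EV from LPS-DC within miRNA against reads over the 6 libraries (log axis) for the 347 tested miRNAs, 1 point per miRNA, with called miRNAs coloured and miRNAs that share letters or position with a snoRNA or scaRNA gene in diamonds. The abundant miR-21a-5p lies near 0 (-0.43), and miR-677-5p (-5.16), miR-5121 (-4.82) and miR-3535 (-4.31) lie far below it.

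The lowest p-values belonged to miRNAs that are encoded at snoRNA genes and were lower in LPS-EV. miR-677-5p had 8, 5 and 9 reads in LPS-EV and 2596, 1658 and 3781 in LPS-DC. Relative to all miRNAs it was 35.6-fold lower in LPS-EV (log2 difference -5.16 ± 0.43, FDR 1.48e-27), and lower in 3 of 3 pairs. miR-5121, with 14, 5 and 18 reads against 3292, 1717 and 5188, was 28.2-fold lower (-4.82 ± 0.41, FDR 1.73e-27). miR-3535 was the abundant member, at 317, 132 and 358 reads against 39495, 22667 and 185241. It held 0.274 ± 0.163% of miRNA reads in LPS-EV and 4.26 ± 3.39% in LPS-DC and was 19.9-fold lower (-4.31 ± 0.41, FDR 1.36e-21). These 3 miRNAs were called under every alternative fit. miR-677-3p, the other arm of the first hairpin, had 2, 0 and 0 reads in LPS-EV and 157, 67 and 240 in LPS-DC (-4.64 ± 0.90, FDR 1.15e-05), and lost its call without replicate 3.

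The miR-5121 and miR-3535 sequences are stretches of snoRNA genes. The snoRNA sequences below (GENCODE M21 genes, GRCm38, the miRNA in capitals) show where each lies. Snord33, a box C/D snoRNA (chr7:45126864-45126947, minus strand), holds miR-5121 near its 5′ end.
Snord33: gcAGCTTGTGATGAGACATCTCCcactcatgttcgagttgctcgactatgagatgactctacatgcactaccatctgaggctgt
Gm24148 (chr1:86352008-86352087, minus strand) begins with miR-3535.
Gm24148: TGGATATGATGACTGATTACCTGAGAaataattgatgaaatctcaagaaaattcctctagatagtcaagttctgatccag
The letters UGAUGA, which are the C box of box C/D snoRNAs, occur in 6 of 300 tested miRNAs with a RefSeq mature sequence (2.0%). These were miR-677-5p, miR-5121, miR-3535, miR-130b-3p, miR-200b-3p and miR-7688-5p. The letters were searched because the first 3 of these had the lowest p-values, so their calls say nothing of the motif.

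Among the tested miRNAs, 17 share letters or position with a snoRNA or scaRNA gene, and 5 of these were lower in LPS-EV and 0 higher. Their median log2 difference was -1.66 (-1.47 with the floor), against -0.22 (-0.04 with the floor) for the other 330 miRNAs, of which 16 were higher and 7 lower. The 17 were grouped with results known and include the 3 miRNAs with the lowest p-values, so their calls and median are a description only. Only 300 of the 347 tested miRNAs had a RefSeq mature sequence. Those without one, miR-5099 and miR-30b-3p among them, were not searched and stand among the 330. The 17 together took 0.573, 0.641 and 0.466% of miRNA reads in LPS-EV and 2.99, 2.9 and 8.9% in LPS-DC, with no overlap between the groups. miR-3068-5p, from the Mir3068 locus, was the fifth (16, 7 and 14 reads against 416, 263 and 366, -1.47, FDR 0.0211), a call that 7 alternative fits did not keep. Under scaling by the miRNA total 4 of the 17 were lower, and without replicate 3 the number was 3.

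A read may be counted at both the miRNA and the snoRNA of a locus. Snord33 and Mir677 held more reads than miR-5121 and miR-677-5p in each library, so not all reads were shared. Gm24148 held 320, 137 and 362 reads in LPS-EV and 39742, 22753 and 185962 in LPS-DC, nearly the numbers of miR-3535. Within the snoRNA class Gm24148 was not called (log2 difference -0.50, FDR 0.338, but -1.14 and called without replicate 2), while over all reads it was lower in LPS-EV (-3.78, FDR 2.52e-05). The snoRNA total as scale gave 0.44 for Gm24148, 0.35 for Snord33 and 0.46 for Mir677, none called. Snord33 had 24, 6 and 27 reads against 4473, 2039 and 6011, and likewise was not called within snoRNA (-0.59, FDR 0.472) but lower over all reads (-3.93, FDR 2.21e-06). Mir677, the snoRNA entry at the miR-677 locus, had the same calls (-0.45 and FDR 0.584 within snoRNA, -3.74 and FDR 8.46e-06 over all reads). The direction stated for these loci is therefore relative to the other miRNAs or to all reads, and not to other snoRNAs.

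The remaining miRNAs lower in LPS-EV included several passenger arms, the less abundant strand of a hairpin. miR-5099 had 3, 0 and 8 reads in LPS-EV and 232, 128 and 707 in LPS-DC (-3.57 ± 0.61, FDR 2.79e-07). miR-16-1-3p, the 3p arm of a miR-16 hairpin, had 56, 6 and 37 reads against 1291, 554 and 1685 (-2.04 ± 0.39, FDR 6.95e-06). In LPS-DC miR-16-5p had 1265, 756 and 914 reads, so miR-16-1-3p was the more abundant arm in replicates 1 and 3. miR-221-5p, the passenger arm of miR-221, had 72, 6 and 75 against 973, 471 and 1683 (-1.31 ± 0.38, FDR 0.0099). miR-30b-3p, miR-27a-5p and miR-877-3p were also lower (-2.07, -1.55 and -2.62), calls that scaling by the miRNA total, the fit without the block and leaving out replicate 3 did not keep. Of these, miR-877-3p was the more abundant arm of its hairpin (278 LPS-DC reads against 14). miR-5099 and miR-16-1-3p lost their calls without the block and without replicate 3, and miR-221-5p also under scaling by the miRNA total and without replicate 2. Passenger arms as a group were split. In 85 hairpins with both arms tested the less abundant arm was the lower of the pair in 47 and the higher in 38, with a median difference of -0.12 on the log2 scale.

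Some miRNAs that mark blood vessels, red cells, muscle and connective tissue were higher in LPS-EV, from few reads in most libraries. miR-126a-3p, an endothelial miRNA, had 37, 6 and 113 reads in LPS-EV and 15, 15 and 83 in LPS-DC. It was 12.2-fold higher within miRNA (log2 difference 3.605 ± 0.51, FDR 2.94e-10) and higher in 3 of 3 pairs. miR-451a, which is made in erythroid cells by a Dicer-independent route, had 6, 1 and 55 reads against 0, 0 and 8 (5.93 ± 0.89, FDR 3.19e-09). Both lost their calls without the replicate block. The share of miR-126a-3p in miRNA reads was 0.0213, 0.021 and 0.0561% in LPS-EV and 0.000882, 0.00151 and 0.00366% in LPS-DC, so that the groups did not overlap.

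Of the erythroid list, 3 of 3 tested miRNAs were higher (median log2 difference 2.35, miR-451a, miR-486a-5p and miR-486b-5p), against a median of -0.26 and 16 of 347 higher for all miRNAs. Of the liver list 0 of 3 tested members were called (median 0.09) and of the neuronal list 0 of 1. The miR-486 entries are near-identical copies whose reads (5, 3 and 41 for miR-486a-5p, 5, 3 and 48 for miR-486b-5p in LPS-EV) cannot be told apart. The defining erythroid miR-144-3p had 0, 0 and 3 reads in LPS-EV and 0 in each LPS-DC library. The list's share of miRNA reads was 0.00923, 0.0245 and 0.0715% in LPS-EV and 0.00253, 0.00101 and 0.00472% in LPS-DC. Of the stromal list, 2 of 5 tested members were higher (median 2.79). miR-143-3p, a miRNA of smooth muscle and fibroblasts, had 6, 4 and 158 reads in LPS-EV and 1, 2 and 109 in LPS-DC (4.04 ± 0.59, FDR 1e-09), and the list took 0.00865, 0.035 and 0.144% against 0.001, 0.00101 and 0.00936%. Without the block 0 members of either list were called, and without replicate 3 the same held for the 2 tested members of each. EV libraries were also made from much less RNA than cell libraries. The paper holds that low input likely lowered the alignment of EV libraries, by raising the part of contaminants from kits or other samples. The part of RNA from other cells, from the medium or from such contaminants in these differences was not tested.

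Muscle miRNAs stood out through replicate 3. miR-1a-3p, a miRNA of heart and skeletal muscle, had 8, 2 and 16688 reads in LPS-EV and 25, 2 and 19741 in LPS-DC. Nearly all of its reads thus came from the replicate 3 libraries of both EV and cells. Its log2 difference was 2.40 ± 0.48 (FDR 2.21e-05), and miR-133a-3p (1, 0 and 421 reads against 3, 0 and 378) and miR-206-3p (1, 0 and 159 against 1, 0 and 204) were higher as well (2.78, FDR 0.000128 and 2.50, FDR 0.00748). Of the 7 muscle miRNAs listed, 5 were tested, 3 were higher and miR-1b-5p and miR-208a-3p had 0 reads. The list took 0.00577, 0.007 and 8.6% of miRNA reads in LPS-EV and 0.00171, 0.000303 and 0.899% in LPS-DC. Without replicate 3 only 1 member could be tested and 0 were called, and 0 were called without the block.

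The other miRNAs higher in LPS-EV were of low abundance. miR-682 had 41, 1 and 145 reads in LPS-EV and 7, 2 and 16 in LPS-DC (5.61 ± 0.62, FDR 1.27e-16), a call kept by every alternative. miR-10b-5p, from the Hoxd cluster, had 9, 2 and 71 reads against 5, 0 and 54 (3.79 ± 0.68, FDR 1.62e-06). miR-203-3p, a miRNA of keratinocytes and other epithelia, had 3, 14 and 21 reads against 27, 11 and 10 (3.06 ± 0.69, FDR 0.000284), and was the single member called among 6 tested epithelial miRNAs. miR-10b-5p and miR-203-3p lost their calls without the block and without replicate 3. miR-6240 (5.73), miR-703 (3.71), miR-125b-5p (2.63), miR-7676-5p (2.26) and miR-100-5p (2.20) completed the higher miRNAs.

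Higher calls fell among rarer miRNAs and lower calls among more abundant ones. Of 39 miRNAs with at least 10000 reads over the 6 libraries 1 was higher and 2 were lower, and of 50 with 1000 to under 10000 reads 0 were higher and 6 lower. Of 94 miRNAs with 100 to under 1000 reads 9 were higher and 4 lower, and of 164 with 10 to under 100 reads 6 were higher and 0 lower. LPS-EV libraries held fewer miRNA reads than LPS-DC libraries, so a lower call could hardly be reached for rare miRNAs. Of the 164, 31 had no EV read, and 0 of these were called. The order by abundance thus cannot be told apart from this limit of depth.

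miRNAs listed for activated dendritic cells had few calls, as did miRNAs at large. miR-155-5p, which LPS induces and which promotes inflammatory cytokine production, had 431, 280 and 496 reads in LPS-EV and 10411, 6332 and 6996 in LPS-DC. Its log2 difference was -0.86 ± 0.32 with FDR 0.0666, and without replicate 2 it passed the threshold (-1.15, FDR 0.00752). Of 16 tested LPS- and NF-kB-induced miRNAs 0 were higher and 1 was lower (median -0.46), beside 16 higher and 12 lower of 347 in the class, and the list's median was 0.05 when scaled by the miRNA total. The lower member was miR-147-5p, the passenger arm of an LPS-induced miRNA, with 19, 4 and 11 reads against 431, 319 and 359 (-1.79 ± 0.47, FDR 0.00353), and it lost its call without replicate 3, without the block and under the miRNA total. miR-146a-5p, an NF-kB-induced inhibitor of Toll-like receptor signalling, had a log2 difference of -0.11, and 0.41 under the miRNA total.

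Of 14 tested dendritic cell and myeloid miRNAs 0 were higher and 0 lower (median -0.41, and 0.06 under the miRNA total), and without replicate 2 the number lower was 1. miR-223-3p, a granulocyte and monocyte miRNA, had 18, 27 and 40 reads in LPS-EV and 349, 191 and 121 in LPS-DC (0.59, FDR 0.533). miR-142a-3p, found in all blood lineages, had 366, 296 and 580 reads against 5327, 3365 and 4002 (0.06, FDR 0.965). In the miR-17-92 group 0 of 14 tested miRNAs were called in either direction, and the miR-29/148 and miR-181 groups likewise gave 0 of 9 and 0 of 7. Each of the miR-23/27/24, miR-15/16, miR-30 and miR-221 and miR-222 groups had 1 lower member, in each case an arm named above.

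Relations of mature miRNA features to the vesicle-to-cell difference were weak and changed with the miRNAs included. Across 300 miRNAs, which are not independent replicates, Spearman's rho was -0.0418 with length and -0.0472 with GC content. In the 112 miRNAs with at least 30 EV reads the values were -0.189 and 0.246. Short motifs that have been studied as sorting signals were searched as plain letters in the mature sequence. Of 32 miRNAs with GGAG 0 were higher and 1 lower (3.12% called, median -0.30). In the 268 without it 11 were higher and 9 lower (7.46% called, median -0.28). Of 40 with GGCU 0 were higher and 1 lower (2.5% called, median -0.58). In the 260 without it 11 were higher and 9 lower (7.69% called, median -0.16). With so few miRNAs, 1 call says little of either motif.

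snoRNAs were depleted from EV as a class, and the shorter ones more than the longer ones. Within the snoRNA class 63 of 322 tested snoRNAs were higher in LPS-EV and 41 lower (32.3% called). Over all reads, with the library total as denominator, 0 were higher and 178 lower (median log2 difference -3.04). Within the class the split depended on the scaling and on the replicates. Scaling by the snoRNA total moved the class median from 0.32 to 1.26 and gave 99 higher and 0 lower, while without replicate 1 there were 8 higher and 2 lower, without replicate 3 4 and 4, and without replicate 2 55 and 69. The direction for short snoRNAs within the class is thus one relative to the TMM reference and was not kept under the snoRNA total.

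The order by length was the same on each scale. snoRNAs of 150 nt or more had a median log2 difference of 3.09 within the class (15 of 17 higher, 0 lower), those of 100 to under 150 nt 1.32 (35 of 164 higher, 1 lower) and those under 100 nt -0.58 (13 of 141 higher, 40 lower). With snoRNAs lacking EV reads set to the floor the last 2 medians were 1.77 and -0.50. Scaled by the snoRNA total the medians were 4.04, 2.27 and 0.36, and over all reads -0.38, -2.18 and -3.90, with 2 of 17, 55 of 164 and 121 of 141 lower and 0 higher. All 17 long snoRNAs lay above 0 within the class in every setting, although fewer were called without replicate 1 (5) or replicate 3 (3). Without those replicates 1 and 0 snoRNAs under 100 nt were higher and 2 and 4 were lower. Across the 322 snoRNAs Spearman's rho of gene length with the log2 difference was 0.55 (Pearson's r 0.385), and 0.647 (r 0.717) in the 159 with at least 30 EV reads. Genes of a library share its depth and are not independent replicates.

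**Figure D3:**
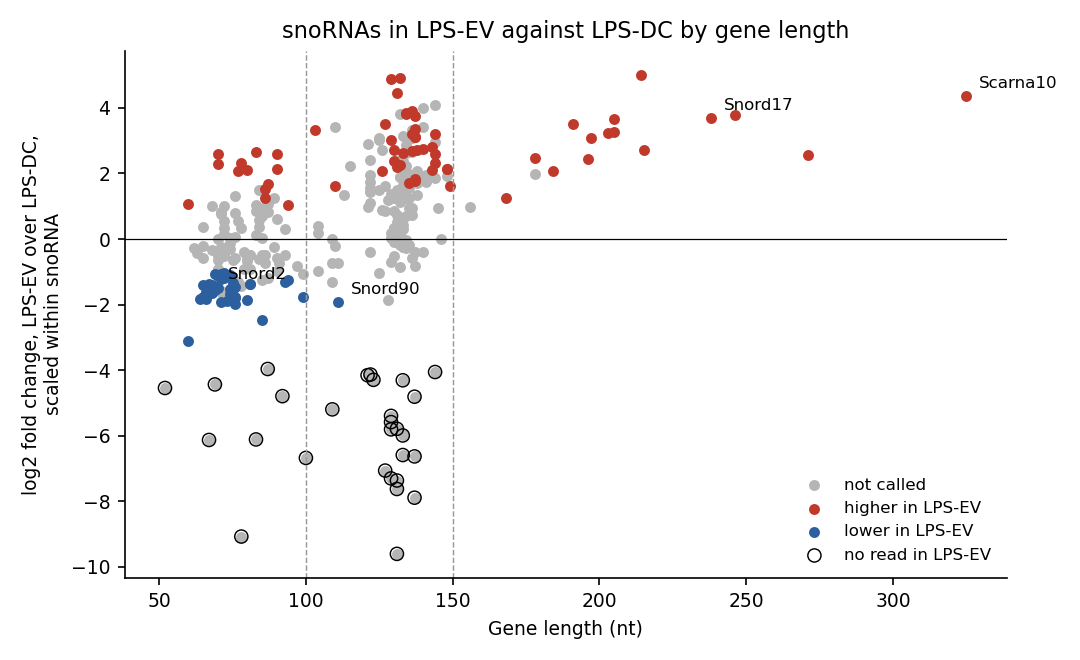
Log2 difference of LPS-EV from LPS-DC within snoRNA against gene length in nt for the 322 tested snoRNAs, 1 point per gene, with called genes coloured, genes without an EV read ringed and dashed lines at 100 and 150 nt. The median rises from -0.58 under 100 nt to 3.09 at 150 nt or more.

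Read shares gave the same order by length in all 3 pairs. snoRNAs of 150 nt or more took 3.68, 0.759 and 3.61% of snoRNA reads in LPS-EV and 0.185, 0.201 and 0.175% in LPS-DC, with no overlap. Those of 100 to under 150 nt took 8.2, 2.7 and 7.0% against 1.69, 2.24 and 1.49%. Those under 100 nt took 88.1, 96.5 and 89.4% against 98.1, 97.6 and 98.3%. In all 3 length groups LPS-EV replicate 2 was the EV library closest to the cells.

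Snord17 and Snord2, both box C/D snoRNAs, are shown as the long and the short end of this order (GENCODE M21, GRCm38). Capitals mark the letters TGATGA of box C within the first 20 bases and CTGA of box D within the last 20, as plain matches. Both matches together occur in 95 of 321 tested snoRNAs (29.6%). Snord17 is 238 nt long (chr2:144265979-144266216, minus strand).
Snord17: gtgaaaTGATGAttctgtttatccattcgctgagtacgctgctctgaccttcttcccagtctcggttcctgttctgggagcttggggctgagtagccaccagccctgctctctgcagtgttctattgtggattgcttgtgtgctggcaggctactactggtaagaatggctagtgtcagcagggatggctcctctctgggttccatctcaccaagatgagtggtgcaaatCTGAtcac
Snord2 is 69 nt long (chr16:23108953-23109021, plus strand) and holds only the CTGA match.
Snord2: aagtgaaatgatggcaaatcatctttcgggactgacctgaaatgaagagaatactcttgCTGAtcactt

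Snord17 had 442, 46 and 535 reads in LPS-EV and 2657, 1376 and 5874 in LPS-DC. It held 0.926% of snoRNA reads in LPS-EV and 0.0318% in LPS-DC in mean and was 12.8-fold higher within the class (log2 difference 3.68 ± 0.45, FDR 5.93e-13), in 3 of 3 pairs and under every alternative. Over all reads Snord17 was not called (0.38, FDR 0.723). Scarna10, a Cajal body RNA of 325 nt listed as snoRNA, had 94, 2 and 120 reads against 276, 172 and 669 (4.35 ± 0.67, FDR 3.37e-08), and lost its call without replicate 3. Gm24949 (215 nt) had 213, 44 and 228 reads against 3649, 1712 and 4538 (2.73, FDR 2.84e-07). Gm22865 (214 nt) had 25, 5 and 14 against 93, 51 and 46 (5.01, FDR 3.45e-07). Snora73a and Snora73b, H/ACA snoRNAs also known as U17 that act in processing of pre-ribosomal RNA, were higher within the class (3.65 and 3.27), and both lost their calls without replicate 1 or replicate 3.

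Several of the most abundant snoRNAs of the cell were lower within the class. Snord2, the most abundant, had 4476, 3314 and 6386 reads in LPS-EV and 1364145, 970209 and 5853416 in LPS-DC. Its share of snoRNA reads was 15.5 ± 2.83% in LPS-EV and 22.4 ± 2.75% in LPS-DC, and its log2 difference was -1.48 ± 0.42 (FDR 0.00298). Over all reads it was lower by far more (-4.78, FDR 5.3e-06). Gm23246, with 3069, 3166 and 4989 reads against 1105578, 1020608 and 3946759, differed by -1.54 (FDR 0.00192). Gm23130 (446, 503 and 895 reads against 238122, 173115 and 849906) and Snord90 (23, 22 and 55 against 11902, 9102 and 51346) had log2 differences of -1.85 (FDR 9.48e-05) and -1.93 (FDR 0.000307). Under scaling by the snoRNA total all of these calls were lost (Snord2 -0.54, Gm23130 -0.91, Snord90 -0.97), and each of these RNAs also lost its call without replicate 1. Of the other abundant snoRNAs, Gm26224 (-0.67) and Snord49a (-0.48) were not called.

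Split by name, H/ACA snoRNAs, which guide pseudouridylation, lay above C/D snoRNAs, which guide methylation. Gene length was not held equal in this split, so it cannot be told apart from the order by length. Of 38 tested H/ACA genes 17 were higher and 0 lower within the class (median 1.69), and of 76 C/D genes 14 were higher and 23 lower (median -0.53). By the snoRNA total 22 of each were higher and 0 lower. Without replicate 1 or replicate 3 at most 1 H/ACA gene was called (1 and 0), and 2 C/D genes were higher and 1 lower, or 1 and 1.

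snRNAs differed between families of the spliceosome. Of 334 tested snRNA genes 21 were higher and 81 lower within the class (30.5% called), and under scaling by the snRNA total 32 were higher and 65 lower. Many of these genes are copies with few reads, and 140 of the 334 had no EV read, 25 of them among those called lower. The class median of -3.82 became -0.11 with such genes at the floor. Without replicate 1 the calls were 10 higher and 48 lower, and without replicate 3 2 and 40. Copies of a family share reads, and their values cannot be taken as separate genes.

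Calls among U1 copies, whose RNA recognises the 5′ splice site, were higher in LPS-EV, and those among U5 and U6 copies, RNAs of the catalytic complex, were lower with 1 exception in U6. Of 29 U1 copies 14 were higher and 0 lower (median 1.27), a count of 20 under the snRNA total, 8 without the block, 6 without replicate 1 and 1 without replicate 3. U1 copies took 19.9, 13.7 and 8.86% of snRNA reads in LPS-EV and 6.77, 4.14 and 3.03% in LPS-DC, with no overlap. The U1 copy Gm23240 had 206, 37 and 97 reads against 445, 186 and 224 (2.71 ± 0.49, FDR 4.88e-07) and Gm24305 13, 4 and 26 against 25, 33 and 100 (2.32, FDR 0.000347, not called without replicate 3). The more abundant U1 copy Gm22042, with 2041, 207 and 2266 reads against 14908, 8198 and 20860, was not called (0.48, FDR 0.409) except under the snRNA total (1.19, FDR 0.0231).

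U5 was lower in 5 of 5 tested genes (median -2.57, and 4 of 5 under the snRNA total). The family took 5.52, 6.97 and 2.86% of snRNA reads in LPS-EV and 24.2, 15.1 and 15.3% in LPS-DC. Of 179 U6 copies 63 were lower and 1 higher. The 101 U6 copies with no EV read included 24 of the lower ones, which were at least 1.98- to 15.7-fold lower at the floor of 3 reads over the 3 LPS-EV libraries, and with the floor the family's median was -0.74 in place of -5.04. Gm25516, a U6 copy, had 1, 3 and 5 reads in LPS-EV and 1380, 1620 and 6753 in LPS-DC (-5.68 ± 0.66, FDR 1.4e-14). U6 as a family took 1.32, 2.84 and 0.396% against 7.04, 5.49 and 2.87%. Without replicate 1 the lower U6 copies numbered 37, without replicate 3 31 and without the block 92.

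U2, which pairs with the branch point, made up most snRNA reads in EV and had few calls. Of 15 tested U2 genes 0 were higher and 1 lower (median -0.35), and under the snRNA total 1 was higher and 0 lower (median 0.31). The abundant Gm23444 had 11140, 1677 and 34609 reads in LPS-EV and 89887, 139088 and 729111 in LPS-DC, which was 30.2 ± 5.29% and 23.5 ± 6.12% of snRNA reads (log2 difference -0.31, FDR 0.531, and 0.39 under the snRNA total). Of the minor spliceosome, Rnu11 (-1.38) and Rnu12 (-1.31) were lower, as was Rnu7 (-1.55), which acts in histone messenger RNA processing. All 3 lost their calls under the snRNA total, without the block and without replicate 3.

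Some snRNA entries with strong differences were assigned to no family, as were 100 of the 334 tested. The reference genes were those of U1, U2, U5, U6, U7, U11 and U12 alone. Copies of other snRNAs such as U4, and copies below 95% identity, therefore have no family here. Gm26128 (110 nt) had 1, 0 and 6 reads against 1103, 1290 and 5913 (-6.10 ± 0.70, FDR 1.19e-14). Gm24871 (116 nt) was an abundant one, with 1020, 249 and 945 reads in LPS-EV and 80608, 56716 and 215419 in LPS-DC. It held 2.49% of snRNA reads in LPS-EV and 11.2% in LPS-DC (-3.05 ± 0.42, FDR 1.11e-10). Gm24405 (167 nt) was higher, with 181, 29 and 90 reads against 277, 161 and 270 (2.71, FDR 5e-07). All 3 were called under every alternative.

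**Figure D4:**
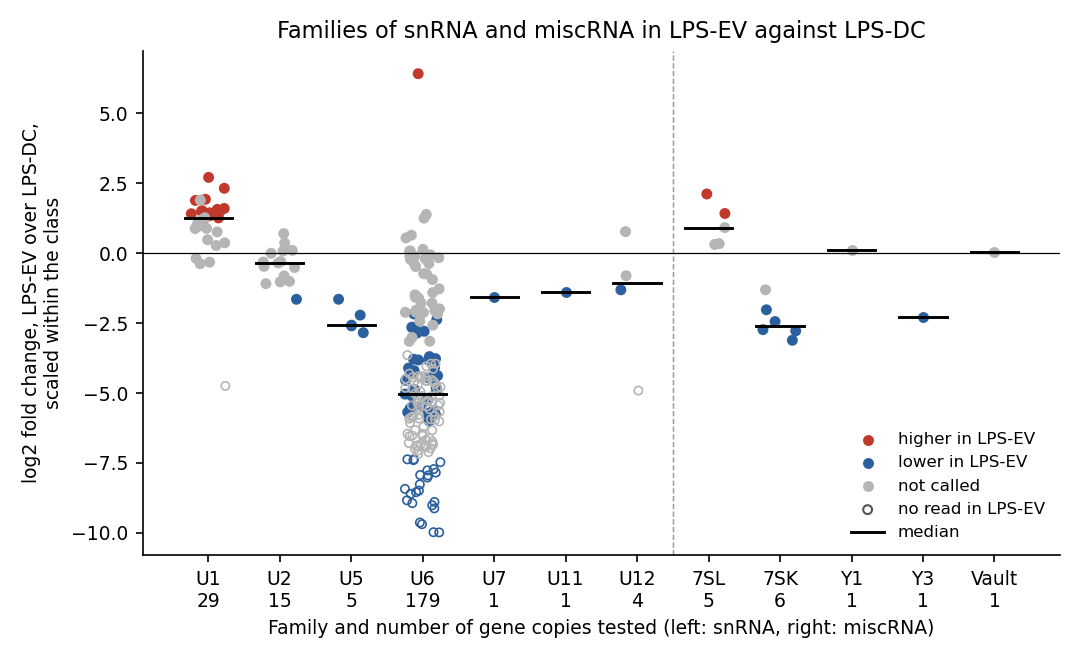
Log2 difference of LPS-EV from LPS-DC, scaled within the class, for copies of each snRNA family (left) and miscRNA family (right), 1 point per gene, with called genes coloured, genes without an EV read open and the family median as a bar. U1 copies lie mostly above 0 (median 1.27), the 5 U5 genes and the 7SK genes lie below 0 (medians -2.57 and -2.59), and the U6 median of -5.04 rests largely on copies without an EV read.

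Within the miscRNA class most of the nuclear 7SK genes were lower in LPS-EV and some 7SL copies higher. Of 37 tested miscRNA genes 7 were higher and 14 lower within the class (56.8% called), and under the miscRNA total 2 were higher and 14 lower. Without replicate 1 the calls were 2 and 7, without replicate 2 0 and 15, and without replicate 3 3 and 6. 7SK was lower in 5 of 6 tested genes (median -2.59), also under the miscRNA total. Rn7sk had 365, 16 and 472 reads in LPS-EV and 1781, 839 and 2685 in LPS-DC (-2.73 ± 0.44, FDR 4e-07). The 7SK genes took 1.01, 0.715 and 1.26% of miscRNA reads in LPS-EV and 10.1, 6.44 and 7.65% in LPS-DC, with no overlap. Over all reads Rn7sk was not called (0.56, FDR 0.586).

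7SL, the RNA core of the signal recognition particle, dominated the class and was higher over all reads. Rn7s1 had 30767, 1382 and 32110 reads in LPS-EV and 11318, 9648 and 26769 in LPS-DC. It made up 33.6% and 29.6% of miscRNA reads and was not called within the class (0.34 ± 0.94, FDR 0.826), but over all reads its log2 difference was 3.68 (FDR 7.38e-05). The 7SL copy Gm26461, with 10987, 514 and 9463 reads against 1380, 891 and 2354, was higher within the class as well (2.12 ± 0.61, FDR 0.00285). Its share was 11.4 ± 0.981% in LPS-EV and 2.94 ± 0.223% in LPS-DC. The whole family took 89.8, 84.1 and 92.3% of miscRNA reads in LPS-EV and 61.8, 69.7 and 71.7% in LPS-DC, and 2 of its 5 tested genes were higher within the class, 1 under the miscRNA total and 0 without replicate 2.

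The Y RNAs, which bind the Ro60 protein, differed from each other. Their genes are printed whole (GENCODE M21, GRCm38, Rny1 at chr6:47788069-47788180 on the minus strand and Rny3 at chr6:47781624-47781725 on the plus strand), since the pair has similar ends and differing loops.
Rny1: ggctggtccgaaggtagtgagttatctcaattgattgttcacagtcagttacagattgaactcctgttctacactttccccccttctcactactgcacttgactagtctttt
Rny3: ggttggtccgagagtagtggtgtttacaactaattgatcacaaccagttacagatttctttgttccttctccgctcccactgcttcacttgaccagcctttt
Rny1 had 1778, 140 and 1602 reads in LPS-EV and 1942, 582 and 1227 in LPS-DC, and was not called within the class (0.13 ± 0.42, FDR 0.834) but was higher over all reads (3.41, FDR 3.13e-05). Rny3 had 288, 38 and 323 reads against 2564, 555 and 1203 and was lower within the class (-2.26 ± 0.42, FDR 5.72e-06), with no call over all reads (1.06, FDR 0.276). Vaultrc5, the Vault RNA, resembled Rny1, with 918, 145 and 987 reads against 1025, 530 and 1006 (0.04, FDR 0.925 within the class, 3.33, FDR 2.71e-05 over all reads). From Northern blots the paper reports that whole Y1 RNA was sequenced poorly and that fragments were over-represented among reads. The Y RNA values are therefore those of reads, in which whole and fragmented RNA are not separated.

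Over all reads 349 of 1379 tested RNAs differed (25.3% called), 58 higher and 291 lower in LPS-EV, and without replicate 3 the number called was 204. The lower ones were 178 snoRNAs, 74 snRNAs, 29 tRNAs, 5 miRNAs and 5 scaRNAs, and the higher ones 19 miRNAs, 18 miscRNAs, 11 tRNAs, 5 snRNAs, 3 ribosomal RNAs and 2 ribozyme RNAs. The class medians were 0.22 for miRNA, -3.04 for snoRNA, -4.03 for snRNA and 3.22 for miscRNA. Rpph1, the RNA of ribonuclease P, which trims the 5′ ends of precursor tRNAs, had 443, 35 and 793 reads in LPS-EV and 462, 311 and 700 in LPS-DC and was higher (3.02 ± 0.70, FDR 0.000161). Rmrp, the related RNA of the ribonuclease that cleaves precursor ribosomal RNA, had 1491, 134 and 1856 reads against 17906, 10747 and 24440 and was not called (-0.53, FDR 0.632). Scarna2, a guide RNA of Cajal bodies, had 13, 4 and 12 reads against 690, 399 and 1607 and was lower (-2.55, FDR 0.00312). 5S ribosomal RNA, with 773, 437 and 1628 reads against 979, 1809 and 15014, was higher (2.17, FDR 0.0111), less so than the entries of the small and large subunit (6.12 and 5.82). The limit from depletion given above holds for these 3 ribosomal entries.

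Genes of tRNAs that typically bear introns were often lower in LPS-EV. Of 316 tested tRNA genes 15 were higher and 34 lower within the class (15.5% called), and under the tRNA total 3 were higher and 25 lower. Mouse genes for TyrGTA, IleTAT, LeuCAA and ArgTCT tRNAs typically contain introns that are spliced out in the nucleus before export. Of 22 such genes 14 were lower and 0 higher (median -2.88, -2.81 with the floor), against 20 lower and 15 higher of the other 294 (median -0.05). Without replicate 1 the number lower among the 22 was 5, without replicate 3 6 and under the tRNA total 12. Together they took 0.0202, 0.0546 and 0.0186% of tRNA reads in LPS-EV and 0.201, 0.13 and 0.218% in LPS-DC, with no overlap. The reads of precursors, of mature tRNAs and of fragments are not separated in the table. The paper reports that read coverage and Northern blots also differed for tRNAs.

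Of the single tRNA genes, chr5.tRNA109-TyrGTA had 62, 7 and 35 reads in LPS-EV and 3395, 2145 and 5644 in LPS-DC (-3.26 ± 0.54, FDR 5.95e-07). chr17.tRNA515-IleTAT had 4, 1 and 4 reads against 371, 485 and 1625 (-4.35, FDR 1.08e-06), and chr13.tRNA65-LeuCAA 53, 11 and 23 against 3054, 1470 and 4993 (-3.06, FDR 4.16e-06). chr11.tRNA1432-CysGCA, outside the intron-bearing list, had a single EV read (1, 0 and 0) against 300, 221 and 677 reads in LPS-DC (-6.69 ± 1.12, FDR 5.95e-07). All 4 were called under every alternative. On the higher side chr3.tRNA48-ValAAC had 2667, 599 and 2609 reads against 11363, 4358 and 5644 (1.88 ± 0.46, FDR 0.000862). Of 19 tested valine tRNA genes 6 were higher and 0 lower (median 1.62), and without replicate 3 that number was 0.

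Summed over genes with the same anticodon, 15 of 48 isoacceptors differed (31.2% called), 9 higher and 6 lower, but 4 under the tRNA total (0 higher) and 0 without replicate 1 or replicate 3. TyrGTA was lower, with 186, 32 and 128 reads in LPS-EV and 10750, 5643 and 17694 in LPS-DC, a share of 0.0143 ± 0.00832% against 0.109 ± 0.0306% of tRNA reads (-2.51, FDR 6.52e-05). IleTAT (-2.56), PheGAA (-2.27, from 6, 3 and 4 EV reads), LeuCAA (-1.79), ArgTCT (-1.65) and ArgACG (-1.37) were lower too. ValAAC (2.28), ValCAC (1.95), SerAGA (1.85), ThrTGT (1.66), ValTAC (1.51), LysTTT (1.505), HisGTG (1.37), GlyTCC (1.29) and SeCTCA (1.18) were higher. Single genes did not all follow the sums. Of 9 tested LysTTT genes 2 were higher and 1 lower (median -0.54), and of 11 tested histidine tRNA genes 0 were called.

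**Figure D5:**
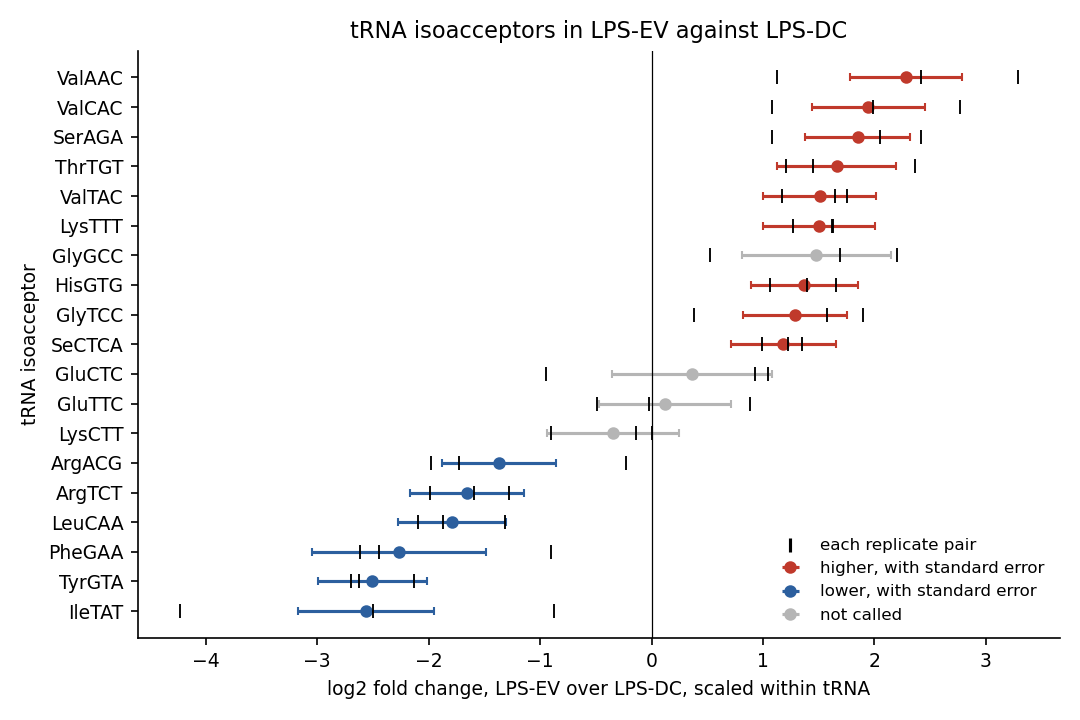
Log2 difference of LPS-EV from LPS-DC within tRNA for the 15 called isoacceptors and, in grey, abundant ones that were not called, with the standard error as bar and each replicate pair as a tick. TyrGTA (-2.51) and IleTAT (-2.56) lie lowest and ValAAC (2.28) highest.

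The tRNAs that supplied most reads were not called. GluCTC made up 51.3 ± 7.64% of tRNA reads in LPS-EV and 58.4 ± 3.5% in LPS-DC (0.36, FDR 0.692). GlyGCC had 537976, 44123 and 398655 reads in LPS-EV and 1555920, 1217311 and 1839820 in LPS-DC. Its share was 27.9, 33 and 29.3% in LPS-EV and 17.1, 16.2 and 14% in LPS-DC, so that the groups did not overlap, but the log2 difference of 1.48 was not called (FDR 0.089). Its gene copy chr1.tRNA1400-GlyGCC, with a log2 difference of 1.06 (FDR 0.0567), passed the threshold in 4 alternative fits.

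Differences of the vesicle-to-cell ratio between LPS and the other conditions were rarely called. In a fit over all 18 libraries, in which the LPS pairs share no library with the control or VitD3 pairs, 0 of 446 miRNAs had a ratio that differed between LPS and control at FDR below 0.05 (0% called, 30 at an unadjusted p under 0.05, and 0 by the likelihood ratio test and without the block). Against VitD3 1 of 446 differed (0.224% called). This was miR-3535, whose log2 ratio was -4.80 in LPS, -2.77 in VitD3 and -4.46 in control, a difference of -2.03 ± 0.48 between LPS and VitD3 (FDR 0.00917). It was -0.90 (FDR 1.0) without replicate 3. In snoRNA, snRNA, miscRNA and tRNA the number was 0 in both contrasts, with 25, 5, 2 and 20 at an unadjusted p under 0.05 against control and 18, 21, 0 and 19 against VitD3. Rny3 was nearest in miscRNA, at -2.40 in LPS and -0.35 in control (difference -2.05 ± 0.64, FDR 0.065).

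RNAs called in LPS mostly had a ratio of the same sign in the other cultures, whose values stand beside those of LPS here as a description. Of 28 called miRNAs 27 had the same sign in control and 28 in VitD3, and of 104 snoRNAs 104 and 102. All 102 called snRNAs had the same sign in both. Of 21 miscRNAs 20 had it in each condition, and of 49 tRNA genes 46 and 48.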

How the data were processed

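The authors deposited raw whole-number read counts per RNA and library. By the submitters' notes and the study's methods, reads were trimmed with cutadapt 1.8, aligned to mm10 with gsnap and counted by strand with HTSeq 0.6.1p1 against miRBase, Ensembl genes and UCSC repeat tracks for tRNA and rRNA. Reads at overlapping entries and at near-identical copies may be counted at each. Of 6017 rows, 138 repeat rows of a mature miRNA were left out.

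The comparison used edgeR 4.0.16 (R 4.3.3, quasi-likelihood test, two-sided) on LPS-EV and LPS-DC, within each class with TMM scaling, and RNAs below 10 reads summed over these libraries were left out. Benjamini-Hochberg adjustment ran within the class. An RNA was called at FDR below 0.05 with over 2-fold difference. A second fit scaled by all counted reads. Log2 differences are LPS-EV minus LPS-DC and carry standard errors, and shares carry SD. Ratios were compared between conditions in a fit over 18 libraries.

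The replicate number entered as a block, since the methods place the triplicates on different days and fit that day. Same-numbered EV and cells deviated together in miRNA (r 0.545 to 0.886) and snRNA (0.401 to 0.879), less so in snoRNA (-0.00795 to 0.35), tRNA (0.0774 to 0.517) and miscRNA (-0.02 to 0.778).

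Members and lists were chosen with earlier results of these data known. Named RNAs are those with the lowest p among those called in each class with the same direction in all pairs, the most abundant, and list members. snRNA families were assigned with BLAST 2.17.0 (95% identity, 50% of the copy, 1382 of 1384 rows with a sequence). Alternatives were the likelihood ratio test, DESeq2 1.42.0, DESeq2 size factors, no block, class totals, other filters, all 18 libraries, and each replicate left out. Figures used Python 3.11.15. No libraries were identical. Counted reads ran from 410968 to 42065263 per library. With the replicate block, p-values of LPS-EV against LPS-DC in fits of these 6 libraries rest on the spread of the EV-to-cell difference over 3 replicate pairs. The estimate of that spread draws on all RNAs of a fit. Spread between cultures that EV and cells share enters the fits without the block. In fits over 18 libraries the block is shared by all conditions. There the deviation of a single culture that its EV and cells share also stays in the spread, as in the tests of ratios between conditions. Fits of sRNA and scRNA were not made, and rRNA, scaRNA and ribozyme rows were tested only over all reads.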

Additional observations from a re-analysis of the deposited data

Results flagged for a closer look

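miR-3535 had a vesicle-to-cell log2 ratio that was lower in LPS than in VitD3 by a difference of -2.03, which passed a test of the difference itself (SE 0.48, edgeR quasi-likelihood FDR 0.00917), and in 3 of 3 replicates. Its reads in EV and cells were 317 and 39495, 132 and 22667, and 358 and 185241 in LPS, and 285 and 25650, 134 and 11162, and 137 and 40884 in VitD3. Against control, with 517 and 58443, 110 and 18112, and 601 and 39213 reads, the difference was -0.34 (FDR 0.862). The VitD3 cells of replicate 2 were sequenced in run 2 and their EV in run 1, and without replicate 2 the difference of miR-3535 was -1.99 (FDR 0.00938). It was -0.90 (FDR 1.0) without replicate 3, -2.21 (FDR 0.159) without replicate 1 and -2.09 (FDR 0.991) without the block, and the number of miRNAs past the threshold was 0 in each of these 3 fits.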

How the results depend on the processing

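Counts of called RNAs moved most when a replicate was left out: miRNA 5 to 32, snoRNA 8 to 124, snRNA 42 to 101, miscRNA 9 to 15, tRNA 12 to 57, all reads 204 to 304, isoacceptors 0 to 18, and the LPS ratio 0 to 2 against control and 0 to 3 against VitD3. Without the replicate block, and so without the pairing, 7 miRNAs were called and 0 ratios differed from VitD3. No other class-wide count moved by over 1.5 times without it, while U1 copies called higher went from 14 to 8 and the erythroid, stromal and muscle lists to 0. The likelihood ratio test and the class total each gave 2 ratios against VitD3. The class total gave 28 tRNA genes and 4 isoacceptors, the fit over 18 libraries 80 tRNA genes, and DESeq2 13 miscRNAs. The cause was not tested.

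Without rRNA in the denominator the vesicle-to-cell ratio of shares was 0.742 for snRNA, 0.961 for scaRNA and 1.32 for ribozyme (0.916 with it). Leaving out replicates gave 0.791 to 1.28 for miRNA, 0.93 to 1.68 for tRNA, 0.0343 to 0.0693 for snoRNA, 0.441 to 0.597 for snRNA, 8.44 to 16.4 for miscRNA, 45.9 to 69.1 for rRNA, 0.569 to 0.797 for scaRNA and 0.621 to 1.21 for ribozyme.

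Of the named RNAs, 56 of the 82 called lost the call in some setting, and 20 of the 39 not called changed sign. Under the class total these were miR-27b-3p (0.030), miR-21a-5p (0.092), miR-146a-5p (0.41), Gm23444 (0.39), Gm23971 (0.40), Gm25813 (0.71), Gm26224 (0.27), Snord49a (0.46), Gm24148 (0.44), Snord33 (0.35), Mir677 (0.46), Rny1 (-0.047) and Vaultrc5 (-0.14). miR-146a-5p was also at 0.066 with DESeq2 or its size factors. filterByExpr gave 0.0099 for miR-146a-5p, 0.24 for Gm25813, 0.0031 for chr1.tRNA709-GluCTC, 0.0033 for chr3.tRNA745-GluCTC, -0.030 for Rny1 and -0.12 for Vaultrc5, and a minimum of 1 read -0.0025 for Gm23744. Leaving out replicates gave -0.17 to 0.05 for miR-146a-5p, -0.27 to 0.47 for miR-142a-3p, -0.26 to 0.81 for Rn7s1, -0.30 to 0.80 for Rn7s2, -0.14 to 0.22 for Vaultrc5, -0.050 to 0.088 for Gm23744, -0.14 to 0.013 for Gm25813, -0.46 to 0.44 for chr3.tRNA303-GluCTC, -0.43 to 0.42 for chr1.tRNA709-GluCTC and -0.43 to 0.42 for chr3.tRNA745-GluCTC. RNAs with few EV reads, and all values from LPS-EV replicate 2, are limited by depth.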
